A study of Mus musculus with 8 samples.

Results

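N6-methyladenosine (m6A) peaks that were called near the 3' ends of genes only after knockdown of Setd2 are described here, in mouse embryonic stem cells. A peak is a stretch of messenger RNA that is more abundant after immunoprecipitation with an antibody against m6A (IP) than in input RNA. The peaks of interest are those of the Dox list whose midpoint, counted along their exonic length, lay within 1000 nt of the 3' end of a protein-coding gene of at least 3000 nt on the same strand, and which shared no exonic nucleotide on that strand with any control peak. They were thus selected on position and on the absence of overlap between the lists, and are called Dox-only 3' end peaks below. There were 1182 of them, of 27612 Dox peaks in all, and they lay in 1101 genes.

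The 8 libraries formed 4 groups of 2 replicates: IP and input from Dox cells, and IP and input from control cells. All cells carried a doxycycline (Dox) inducible Setd2 knockdown and were grown without feeder cells, as spheres, in serum-free N2B27 medium with 1 µM of the MEK inhibitor PD0325901, 3 µM of the GSK3 inhibitor CHIR99021 and 1000 U/ml LIF. Dox cells received 1 µg/ml Dox for 4 days, and control cells received none. No Dox-treated cells without the knockdown construct were analysed here, so Dox itself and the knockdown cannot be told apart. The authors called 1 list of peaks per condition on both replicates together, which leaves 1 value per condition, no replicate spread and no test between conditions. Sequencing depth is unknown. Intervals given for shares are 95% intervals by the exact Clopper-Pearson method. They hold counting error alone and treat peaks or genes as independent. Folds, p-values and FDRs are those the authors' peak caller gave to each peak.

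SETD2 places the trimethyl mark on lysine 36 of histone H3 along transcribed genes. The methyl group of m6A is added during transcription by the METTL3-METTL14 complex, which can recognise that histone mark through METTL14. Messenger RNAs carry m6A mainly around the stop codon and in the 3' untranslated region, where reader proteins such as those of the YTH family bind it and influence translation and decay. Setd2 itself held no Dox-only 3' end peak. Its single 3' end peak in the Dox list (fold 3.49, log10 FDR -4.30, 271 nt) overlapped its single 3' end peak in the control list (2.75, -5.12, 181 nt). Peaks give no level of the transcript, and how far Setd2 was depleted was not analysed here. Of 8 markers of pluripotency, 6 carried peaks in either condition (Pou5f1, Nanog, Esrrb, Klf4, Tfcp2l1 and Zfp42). Sox2 and Dppa5a were not among them. Of a short panel of 5 fibroblast markers, Col1a1 did in both lists, and none of a short panel of 4 primitive endoderm markers did. In longer lists, 5 of 18 fibroblast and feeder markers and 5 of 13 primitive endoderm markers carried a Dox peak, and the part of such cells in the results was not tested.

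Sequence could be shown for few of these regions, because only RefSeq windows around gene starts (GRCm38.p6, the assembly of mm10) were used, and 7 of the 1182 regions fell at least partly into one. The letters GGAC, the core of the commonest form of the m6A consensus, were searched in the covered parts, on the strand of the peak. They occurred in 2 of the 7. Stretches of at most 30 bases are printed 5' to 3' with these letters in capitals, to show where they occurred. The base after these letters was not part of the search, so a stretch need not match the full consensus.
Atraid, chr5:31054532-31054561, plus strand: tcgggggtcttgtGGACacttggttcagga
Atraid, chr5:31054551-31054580, plus strand: ttggttcaggagtGGACtcgtactaatttg
C2cd3, chr7:100469517-100469546, plus strand: gaggaaacctgagGGACgtggctaccagcc
The Atraid peak had a fold of 2.69 (log10 FDR -8.14), and 64 of its 179 nt were covered. The gene carried no control peak. The C2cd3 peak was weaker (fold 2.09, log10 FDR -2.67). The covered parts of the peaks of Nhlrc3, Lhx2, Rasip1, Snapc5 and Lamb2 did not hold these letters. As background, GGAC occurred in 20.3% of the 32851 RefSeq windows when their first 64 bases were searched, on the strand of the gene. That length is the one covered in Atraid. The covered parts of the 7 peaks ran from 15 to 150 nt, so their count cannot be set against this share. A match is a string of letters and not a measured m6A site.

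The first comparison, of the lists at 3' ends, asks how many Dox peaks at 3' ends lacked a control peak, and how strong those peaks were. Of the 3725 Dox peaks at 3' ends, 1182 (31.7%, interval 30.2% to 33.3%) had no overlapping control peak, beside 29.2% of all 24406 Dox peaks that could be placed on a gene and 29.1% of the full list. The share was 30.2% for Dox peaks between the gene ends and 14.6% at 5' ends. Because this contrast chose the peaks, nothing is read from the count itself. In the other direction, 334 of 3068 control peaks at 3' ends (10.9%) had no Dox peak, beside 18.4% of all placed and 19.3% of all control peaks.

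Most Dox-only 3' end peaks were weak. Their median log10 FDR was -3.23 (quartiles -6.08 and -2.28), against -17.3 for the 2543 Dox 3' end peaks that overlapped a control peak, called shared below. At log10 FDR -5 or below there were 363 (30.7% of the Dox-only peaks), against 2006 (78.9%) of the shared ones. At -20 or less there were 44 (3.72%), against 1192 (46.9%). The share of 3' end Dox peaks without a control peak was 75.8% above a log10 FDR of -2 and 3.56% at -20 or less. Between these limits it lay at 68.2%, 47.5%, 33.9% and 21.3% in classes of increasing strength. For Dox peaks between the gene ends the shares in the same 6 classes were 68.3%, 60.6%, 42.8%, 25.7%, 14.1% and 2.50%. These shares rest on the overlap that chose the peaks and on 1 pooled list per condition, so they are descriptions and the difference between positions was not tested.

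**Figure D1:**
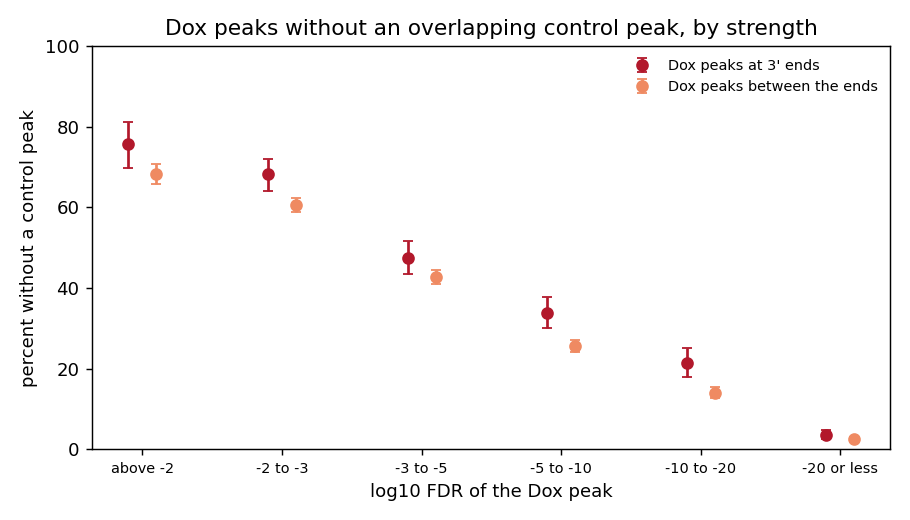
Percentage of Dox peaks without an overlapping control peak (y axis) in classes of the peak's log10 FDR (x axis, weak to strong), for Dox peaks at gene 3' ends and for Dox peaks between the gene ends. Bars are exact 95% binomial intervals. The share falls with strength, at the 3' end to 3.56% at log10 FDR -20 or below and between the ends to 2.50%.

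Fold enrichment, the authors' ratio of IP over input for each peak, was low. The Dox-only 3' end peaks had a median fold of 2.46 (quartiles 1.92 and 3.80, range 1.14 to 20.6), against 3.68 for shared 3' end Dox peaks (2.65 and 5.01). The pattern by strength differed between these groups. Among shared peaks the median fold was 2.66 in the weakest class and 4.19 in the strongest. Among Dox-only peaks the medians from the weakest to the strongest class were 2.47, 2.71, 2.71, 2.36, 2.2 and 2.13, the last over 44 peaks. The overlap that chose the groups bears on these medians, and its part was not tested. At log10 FDR -5 or below, 127 of 363 Dox-only peaks (35.0%) had a fold under 2, against 136 of 2006 shared peaks (6.78%), and 23 (6.34%) reached a fold of 4, against 933 (46.5%). The better supported Dox-only peaks thus mostly stayed under a fold of 4, with a median of 2.3, and the number of reads behind each is unknown. Dox-only peaks between the gene ends also had a low median fold in the strongest class, 2.14. Low folds were not shared by the 334 control 3' end peaks without a Dox peak. Their median fold was 4.0 (quartiles 2.4 and 7.07), at a median log10 FDR of -2.87. Folds of lists called separately depend on depth and pull-down, so the part of these was not tested. High folds belonged mostly to weak peaks: of the 275 Dox-only 3' end peaks with a fold of at least 4, 252 had a log10 FDR above -5. These 252 took 49 distinct values, and 10 of the values (11.9 the commonest, with 20 peaks) covered 56.3% of them. Their folds are therefore coarse.

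The second comparison concerns width. The Dox-only 3' end peaks were narrow, with a median exonic width of 151 nt (quartiles 91 and 210, range 59 to 780). Shared 3' end Dox peaks had a median of 330 nt (211 and 505). Dox-only peaks between the gene ends had the same median, 151 nt, and the 334 control 3' end peaks without a Dox peak had one of 121 nt. Narrowness was therefore common to unmatched peaks of either list. A width of 100 nt or less was found in 27.7% of Dox-only and 3.97% of shared 3' end peaks, and one of 500 nt or more in 0.846% and 25.3%. Width followed strength in both groups. In the class from -10 to -20 the medians were 240 nt for Dox-only and 325 nt for shared peaks, and at -20 or less 268 nt and 450 nt. A wider peak also has more chance to touch a peak of the other list, and the part of this in the difference was not tested. Widths came in steps: 94.2% of the Dox-only 3' end peaks were within 1 nt of a multiple of 30 nt, with 194 peaks at 180 nt, 164 at 60 nt and 163 at 90 nt.

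**Figure D2:**
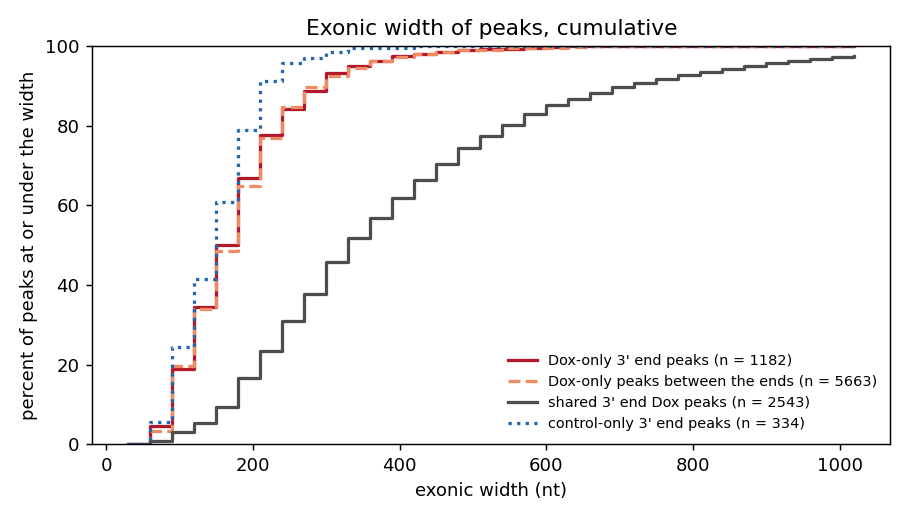
Cumulative percentage of peaks (y axis) at or under each exonic width in nt (x axis) for Dox-only and shared 3' end peaks, Dox-only peaks between the gene ends and control 3' end peaks without a Dox peak. The curves of the 3 unmatched groups rise early, with medians of 151, 151 and 121 nt, and that of shared 3' end Dox peaks lies far to the right, with a median of 330 nt.

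**Figure D3:**
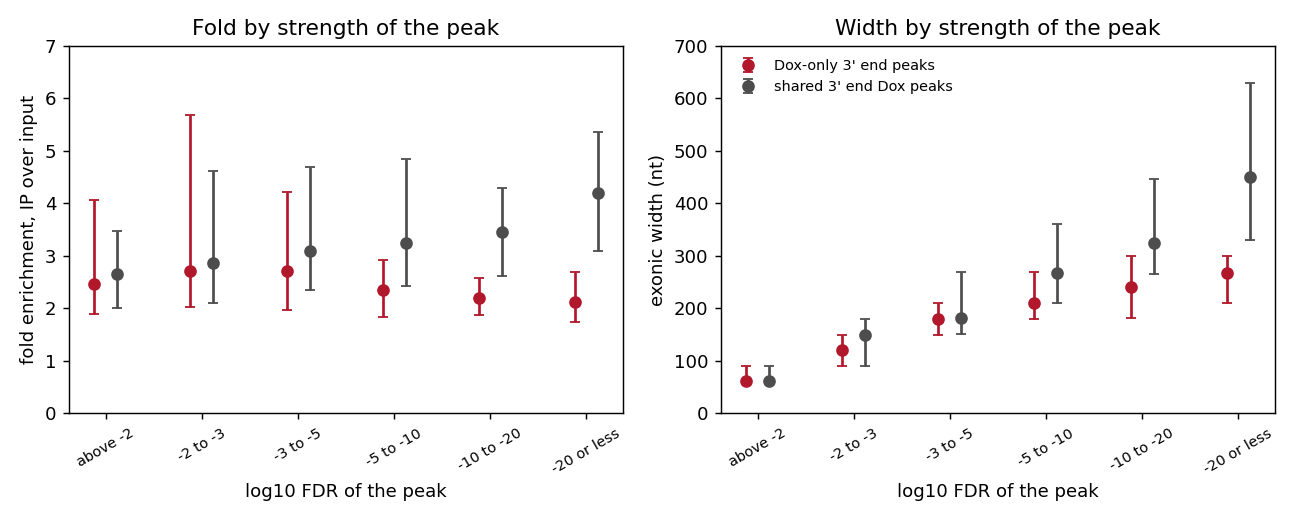
Median and quartiles (points and bars) of fold enrichment (left) and exonic width in nt (right) in classes of log10 FDR (x axis, weak to strong), for Dox-only and shared 3' end Dox peaks. With rising strength the median fold of Dox-only peaks ends at 2.13 and that of shared peaks at 4.19, while widths grow in both groups, to 268 and 450 nt.

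The extremes of width were of different kinds. The widest Dox-only 3' end peaks lay in Igsf3, an immunoglobulin superfamily gene (780 nt, fold 3.19), and Ahsa2, which encodes an HSP90 co-chaperone (627 nt, 4.23). They were followed by Trap1, the mitochondrial HSP90 gene (599 nt over 5 exonic blocks, 1.68), the ubiquitin ligase gene Dtx3 (599 nt, 2.13) and Pigs, a subunit gene of the GPI transamidase (597 nt, 2.06). All 5 genes also carried control peaks outside the 3' end. The narrowest lay in Adat3, a tRNA deaminase gene (59 nt, fold 2.01). Many tied at 60 nt, of which those with the lowest FDR lay in Lsm2 of the U6 snRNP (1.34), the interferon factor gene Irf9 (2.68), the tRNA methyltransferase gene Trmt61a (1.8) and Ube2v1 (1.20). The log10 FDR was -1.56 in Adat3 and -6.04 in Lsm2, and the range over these 5 follows from that choice.

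Most Dox-only 3' end peaks were single stretches: 1054 (89.2%) had 1 exonic block, against 70.9% of shared 3' end Dox peaks, and 24 (2.03%) had 3 or more, against 9.95%. Their midpoints lay a median of 464 nt from the gene's 3' end (interval of the median 436 to 494), against 509 nt (493 to 525) for shared peaks. In the last 250 nt lay 22.7% of Dox-only and 17.2% of shared peaks, and in the last 100 nt 3.55% and 1.30%. Width also differed between these groups, and its part in this difference was not tested. The 334 control 3' end peaks without a Dox peak resembled the Dox-only ones: 88.3% had 1 block and 1.5% had 3 or more. Their midpoints lay a median of 477 nt from the 3' end, with 24.6% in the last 250 nt. These traits were therefore common to unmatched 3' end peaks of either list. At the limit of the window, Zfp36l1 (1000 nt, fold 1.74) and Diaph3 (999 nt, 2.31) were just inside, and Gsr (1001 nt, 1.41) and Oxsr1 (1001 nt, 2.20) just outside. On the autosomes and X, the Dox-only share of 3' end Dox peaks ran from 26.2% on chromosome 10 (50 of 191) to 42.7% on chromosome 13 (32 of 75). These extremes rest on small counts, and differences between chromosomes were not tested.

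**Figure D4:**
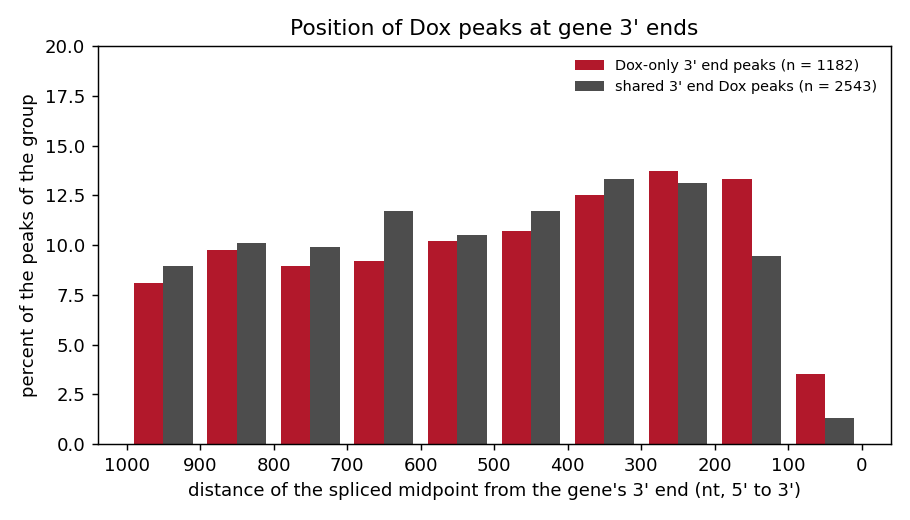
Percentage of the peaks of each group (y axis) by distance of the midpoint from the gene's 3' end in nt (x axis, 100 nt bins, 5' to 3'), for Dox-only and shared 3' end Dox peaks. Both groups fill the window, and the last 2 bins before the end hold a larger part of the Dox-only peaks, 13.3% and 3.55% against 9.44% and 1.30%.

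Several of the strongest Dox-only 3' end peaks, by log10 FDR, lay in housekeeping genes and had low folds. Eef1a1, the gene of translation elongation factor 1A, came first, with a peak of 357 nt (chromosome 9, 78478449 to 78478805, minus strand) at a fold of 1.73 and an FDR listed as 0. The ribosomal protein gene Rpl35 had a peak of 119 nt (chromosome 2, 39001580 to 39001698) at a fold of 1.65 (log10 FDR -59.1). The alpha tubulin gene Tuba1a had one of 240 nt at 1.57 (log10 FDR -41.7). Eef1a1 and Tuba1a had no control peak at all. These 3 genes have close copies in the genome, so reads may have been split among copies and the values are uncertain. Transcript levels were not analysed here.

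The remaining 9 of the 12 strongest had varied roles. Cherp, which encodes a splicing-associated protein of the endoplasmic reticulum, had a peak of 390 nt in 2 blocks (chromosome 8, 72461086 to 72461555) at a fold of 2.64 (log10 FDR -59.6). Aurka, the mitotic Aurora A kinase gene, had one of 567 nt in 3 blocks (chromosome 2, 172356666 to 172359830) at 2.30 (-57.6). The RNA helicase gene Dhx9 had one of 390 nt (chromosome 1, 153456536 to 153457702) at 2.64 (-56.1). In Dhx9 the only control peak was a second stretch closer to the end (181 nt, fold 1.64, log10 FDR -6.36), which a wider Dox peak covered (270 nt, 2.66, -23.3). The Y-box RNA-binding protein gene Ybx3 (fold 1.71, log10 FDR -40.3) and the SMN complex gene Gemin4 (2.94, -37.4) were also among them. At Gemin4 the tables list a second, nearly identical peak under another gene identifier. The list was completed by the mitochondrial ribosomal gene Mrps24 (2.03, -45.1), the targeting ATPase gene Get3 (1.49, -44.5), the G protein gene Gnai2 (2.05, -41.9) and Zscan10, a zinc finger factor of stem cells (2.14, -35.6).

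Of these 12 genes, 10 had control peaks, which lay upstream of the Dox-only peak except in Dhx9. Gnai2 carried a peak with the same bounds in both lists, centred 5969 nt from the 3' end, at a fold of 3.81 in the Dox list and 6.42 in the control list. Its 5' end peak had a fold of 4.42 in the Dox list and 15.2 in the control list. That of Ybx3 had 2.91 in the Dox list and 23.8 in the control list. Zscan10 had a peak across 6 blocks in both lists, 1607 nt at a fold of 4.41 in the Dox list and 1518 nt at 5.66 in the control list, and its Dox-only peak began downstream of it. In Rpl35 and Mrps24 the Dox-only 3' end peak was the only Dox peak placed in the gene. The only control peak placed there was at the 5' end (fold 14.8 and 5.46) and had no Dox counterpart. For Mrps24 the identifier of the peak carried 2 control peaks, of which 1 was placed in the gene. In Get3 the only control peak was also at the 5' end (3.25), with a Dox counterpart (4.75). Folds of lists called separately depend on depth and pull-down, so they are given side by side and not compared as a change.

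**Figure D5:**
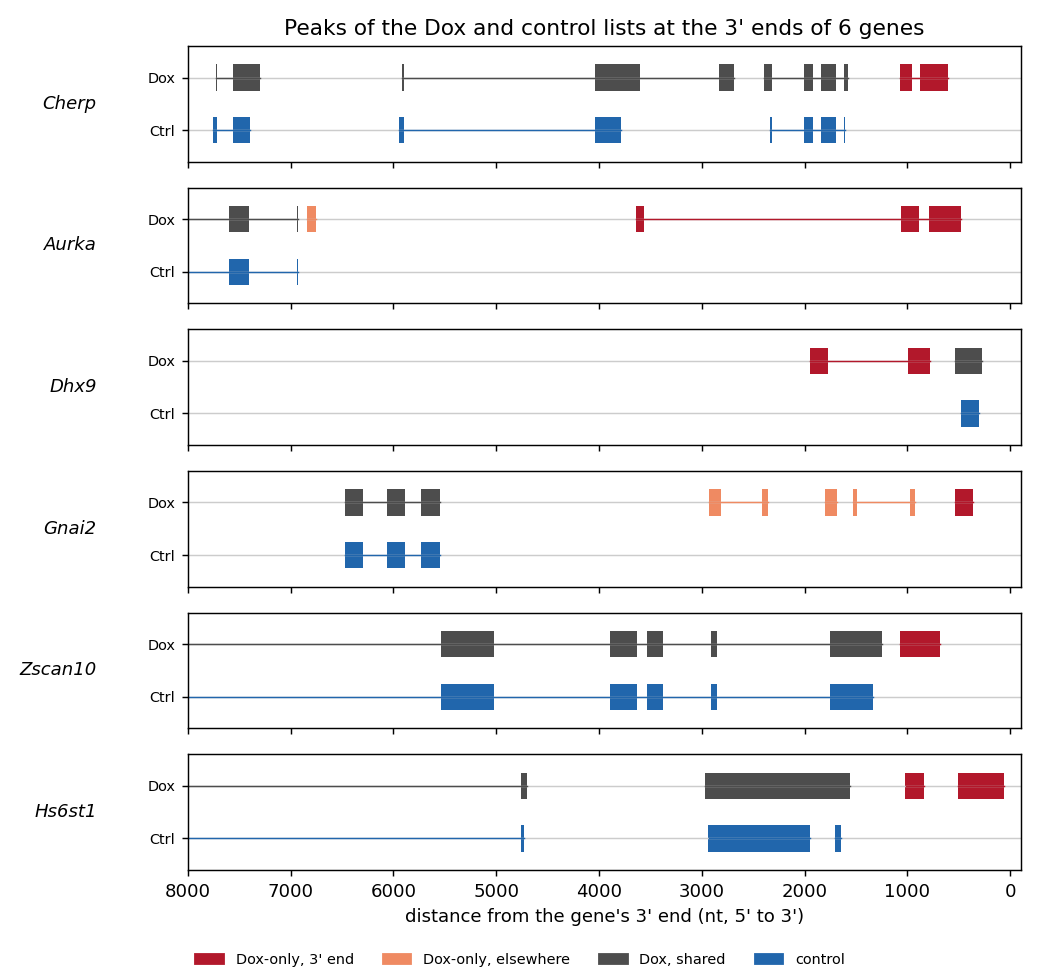
Peaks of the Dox list (upper row) and the control list (lower row) over the last 8000 nt of 6 genes, by distance from the gene's 3' end in nt (x axis). Boxes are exonic blocks, joined by lines within a peak. Dox-only 3' end peaks lie downstream of the shared peaks in Cherp, Aurka, Gnai2, Zscan10 and Hs6st1, and upstream of a shared peak in Dhx9.

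Ranked by fold among those at log10 FDR -5 or below, a separate set of genes came first. Mapk12, the p38 gamma kinase gene, had a 211 nt peak at a fold of 17.4 (chromosome 15, 89130675 to 89130885). Fam174b followed at 16.3 and Lactb, which encodes a mitochondrial protein related to beta-lactamases, at 8.68. Then came the glycosyltransferase genes Galnt9 (8.13) and Alg8 (6.20), with Phyhip (7.16) and the ubiquitin ligase gene Trim62 (6.33) between them, and Arhgef19 (5.73). Their log10 FDRs lay between -5.16 and -6.56, just past the limit. Mapk12, Galnt9 and Alg8 had no control peak. Trim62 and Phyhip show how near an unmatched control peak can lie. In Trim62 a control peak of 91 nt (fold 5.54, log10 FDR -2.66), itself without a Dox counterpart, lay 29 nt from the Dox-only peak. In Phyhip one of 121 nt (4.92, -3.32) lay 269 nt away.

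The third comparison asks what the same genes carried in control cells. Of the 1101 genes with a Dox-only 3' end peak, 834 (75.7%, 73.1% to 78.3%) had at least 1 control peak and 267 (24.3%) had none. Among all 9547 genes with a placed Dox peak, 89.2% had a control peak. A shared Dox peak brings a control peak with it: all 2229 genes with shared 3' end Dox peaks and no Dox-only 3' end peak had one. The choice of genes thus bears on this difference, and nothing is read from it. Of the 1101 genes, only 163 (14.8%) had a control peak at the 3' end, which the choice of genes makes rarer, and 671 (60.9%) had control peaks elsewhere only. The genes held 3143 Dox peaks and 1979 control peaks, with medians of 3 and 1 per gene. In 759 genes (68.9%) another Dox peak overlapped a control peak, so the Dox-only 3' end peak stood beside a shared one. In 237 (21.5%) it was the gene's only Dox peak, and 193 of these 237 genes had no control peak at all. More than 1 Dox-only 3' end peak was found in 75 genes. The strongest of these, beside Eef1a1 and Gemin4, were Raver1, which encodes a partner of the splicing factor PTB (2.54 and 1.48 in fold), the pyrimidine synthesis gene Dhodh (2.81 and 2.17) and Hs6st1, a heparan sulfate sulfotransferase gene (2.50 and 1.82). The peaks of the pair overlap each other in Dhodh, and also in Eef1a1 and Gemin4, where they are listed under separate gene identifiers. In all, 34 Dox-only 3' end peaks shared nucleotides with another.

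Where a gene had control peaks, the nearest lay a median of 1228 nt of genomic distance from the Dox-only peak (quartiles 359 and 5248, over 894 peaks). For 405 (45.3%) it was within 1000 nt, for 186 (20.8%) within 300 nt and for 47 (5.26%) within 100 nt. It lay 5' of the Dox-only peak in 841 cases (94.1%), which follows largely from the peaks being at the 3' end. In 737 cases (82.4%) that nearest control peak itself had a Dox counterpart. Of all 22636 placed control peaks 4158 (18.4%) had none, so this share is near that of control peaks in general. Among the genes with a control peak at the 3' end, all such peaks had a Dox counterpart in 139 of 163. The remaining 24 genes (14.7%), Trim62 and Phyhip among them, had a control 3' end peak without a Dox peak as well as a Dox-only one. Counted by peak and not by gene, 334 of all 3068 control peaks at 3' ends (10.9%) had no Dox peak.

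Loss of control peaks in these genes was set beside that in the other 8446 genes with a placed Dox peak. At 5' ends the share of control peaks without a Dox counterpart was 34.1% (28.7% to 39.9%) in the genes with a Dox-only 3' end peak and 34.1% (32.2% to 36%) in the others. A control peak at the 5' end was carried by 25.3% of these genes and 28.4% of the others. Between the ends 17.8% (15.9% to 19.8%) of control peaks lacked a counterpart, against 13.2% (12.7% to 13.8%). At 3' ends it was 14.1% (9.26% to 20.3%), against 7.64% (6.68% to 8.69%). These shares use the same pair of lists as the choice of genes, so they are descriptions.

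Genes without any control peak were described separately. Their 288 Dox-only 3' end peaks had a median fold of 2.95, against 2.77 for the 174 peaks of genes with a control 3' end peak and 2.30 for the 720 peaks of genes with control peaks elsewhere. Widths were alike, at 150, 150 and 151 nt, and so were the median log10 FDRs, at -3.12, -3.04 and -3.33. Peaks of this strength are weak, and the difference in fold was not tested. Eef1a1 and Tuba1a were the strongest of the genes without a control peak, by log10 FDR. The next were Cth, which encodes the cysteine-forming enzyme cystathionine gamma-lyase (fold 1.75, log10 FDR -21.7), and the mitochondrial import gene Timm17a (1.85, -21.3). Them6 (4.20, -20.9) and the mitochondrial ribosomal gene Mrpl4 (2.05, -19.3) followed. Except for Eef1a1 and Cth, each of these 6 genes had the 3' end peak as its only Dox peak.

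Gene groups relevant to the cells and to the assay were described by counting members with a Dox-only 3' end peak among members with any 3' end Dox peak. Over all genes this was 1101 of 3330, or 33.1%, and a share near it says nothing particular of a group. Most lists have few such genes, and no test was made of them.

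Among writers, readers and erasers of m6A, 2 of 4 qualified. The reader gene Igf2bp2 had a Dox-only peak of 241 nt at a fold of 3.98 (log10 FDR -20.8; chromosome 16, 22059578 to 22059818), 718 nt from the nearest of its 4 control peaks (5.85, with a Dox counterpart). Zcchc4, which methylates ribosomal RNA, had one of 91 nt at 2.40 (-1.92). Among histone lysine methylation enzymes 5 of 11 did. Kdm1a, the demethylase LSD1, had a peak of 210 nt 142 nt from the 3' end (2.91, -26.3), and its nearest control peak was 23307 nt away. Setdb1, an H3K9 methyltransferase (2.29, -18.4), and the demethylase genes Kdm3a (1.93, -7.67), Kdm4c (2.24, -3.08) and Kdm4a completed the group. Kdm4c, whose product removes methyl groups from H3K9 and H3K36, had no control peak.

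Factors that form and shorten the 3' ends of transcripts followed. Of the cleavage and polyadenylation factors 6 of 10 had a Dox-only 3' end peak: the poly(A)-binding protein gene Pabpn1 (1.96, -16.5), Cstf3 (2.15, -4.98, no control peak), Cpsf2 (3.86, -3.38), Pabpc4 (1.31, -2.96), Cpsf3 and Cpsf7. Of the deadenylation and decay factors 4 of 12 did: the CCR4-NOT subunit gene Cnot3 (1.53, -6.36), Edc3 of the decapping machinery (2.26, -6.21), Zfp36l1, which binds AU-rich elements (1.74, -2.26), and the deadenylase gene Pan2 (1.55, -1.78).

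Pluripotency regulators qualified in 3 of 15 cases. Tcf7l1, a repressor at WNT targets, had a 330 nt peak (1.96, -13.4), 389 nt from a control peak of similar fold (2.09, -12.7). Prdm14, a factor of the naive state (2.16, -10.1), and Tcl1, a coactivator of AKT kinase (1.39, -6.43), had no control peak. Of regulators of germ layers and the primed state, whose transcript levels were not analysed here, 3 of 4 did, all with log10 FDRs above -5. Bmp4 (20.6, -4.48) and Eomes (17.4, -3.92) had high but coarse folds and no control peak, and Zic5 (2.45, -2.60) had 2 control peaks elsewhere. None of the 18 fibroblast and feeder markers or the 13 primitive endoderm markers had a 3' end Dox peak, and the Dox peaks of the 5 genes of each list that carried any lay elsewhere.

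Among signalling genes, 3 of 7 members of the FGF, RAS and MEK pathway had a Dox-only 3' end peak. They were the adaptor gene Shc1 (1.54, -8.61), the MEK2 gene Map2k2 (2.42, -6.11) and the ERK phosphatase gene Dusp5 (5.64, -3.67). In Dusp5 the only control peak, without a Dox counterpart, lay 58 nt away (5.33, -1.84). Tgif2 (1.79, -6.58), Bmp4 and the activin receptor gene Acvr1b (1.95, -2.66) stood for 3 of 7 in the TGF-beta and BMP list, and the casein kinase gene Csnk1a1 (2.25, -4.88) for 1 of 5 in the WNT list. Cell cycle regulators gave 4 of 9: Aurka, the polo-like kinase gene Plk1 (1.87, -23.6), the phosphatase gene Cdc25a (1.69, -4.28) and E2f1 (1.63, -2.26). In Cdc25a and E2f1 the nearest control peak was strong (log10 FDRs of -152 and -196) and had a Dox counterpart. The apoptosis list gave 1 of 7, the p53 target gene Bbc3 (1.61, -2.04).

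Larger families were counted in the same way. Zinc finger (Zfp) genes gave 28 of 78 (35.9%), led by Zfp143 (3.58, -8.73, no control peak), Zfp384 (3.25, -8.44), Zfp142 (4.96, -6.61) and Zfp990 (2.12, -4.29). Solute carriers gave 31 of 73 (42.5%), among them the mitochondrial carrier gene Slc25a13 (1.92, -11.0), the creatine transporter gene Slc6a8 (1.52, -7.69) and Slc25a33 (1.94, -6.35). Cytoplasmic ribosomal protein genes gave 4 of 15 (26.7%), all with folds under 2: Rpl35 (1.65), Rpl17 (1.51), Rps19 (1.38) and Rps7 (1.14). The ubiquitin-specific proteases gave 2 of 7, Usp10 (2.58, -24.4) and Usp28 (2.16, -7.76). In Usp10 the Dox-only peak lay 89 nt from a control peak with a fold of 11.2 that had a Dox counterpart. Values of zinc finger and ribosomal protein genes are uncertain because these families have close copies.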

How the data were processed

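The values are peaks of m6A sequencing, 1 table and 1 shorter list for each of the Dox and control conditions. Reads were handled with FastQC 0.11.5 and TopHat2 2.1.1 on mm10, per the submitters' processing notes. The deposited tables carry the name of exomePeak, a peak caller for such data. Which version, settings and gene models it ran with is not given here by any source. The labels tie each file to all 4 libraries of its condition. The deposited tables give the p-value of each peak (a column headed score), its log10 p and log10 FDR, a score that reaches minus infinity, and the fold, a ratio of IP over input. They belong to single peaks, and no source used here states the scaling between IP and input. The shorter deposited lists were checked to hold exactly the peaks with p-values up to 1e-05 and folds from 2 upward (15500 Dox and 16914 control peaks).

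Overlap was counted over exonic blocks on the same strand, at least 1 nt. RefSeq gene intervals (GRCm38.p6) came without strand, so strand was taken from the RefSeq promoter windows for 17492 of 21900 protein-coding genes, and for 2024 more from the strand of the identifier with most peaks in the gene. Both sources gave the same strand in 98.6% of the 8481 genes that had both. The rule on gene choice for the second source was that 50% of an identifier's midpoints lie in the gene. Where intervals overlap, the shortest was used. This placed 24406 Dox and 22636 control peaks. The peaks of a gene are those placed in its interval, so further peaks under the same identifier are not counted. Exon and untranslated region annotation was not used here. Distances are genomic, so they can span introns.

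Genes were named by a fixed rule: the 12 lowest FDRs, the 8 highest folds at a log10 FDR of -5 or less, the 5 widest and 5 narrowest, 5 genes with several peaks, 2 on each side of the window limit, up to 4 per list and 6 without a control peak. Gm and Rik genes were left out of most parts. A gene that the rule names among the solute carriers is not reported here. Kdm4a, Cpsf3 and Cpsf7 were named to complete their counts, and Atraid, C2cd3 and the other genes of the sequence paragraph because a RefSeq window covers them. The peaks and lists were chosen with earlier results of these data known. No test was made. On 400 simulated peaks per list, overlap and placement had 0 errors. Python 3.11.15 with numpy 2.4.6, pandas 2.3.3, scipy 1.17.1 and matplotlib 3.10.9 were used.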

Additional observations from a re-analysis of the deposited data

How the results depend on the processing

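The count of Dox-only 3' end peaks (1182, 31.7%) depended most on the peak thresholds. With the stricter lists in both conditions it was 600 (26.8%), and with the stricter Dox list against all control peaks it was 289 (12.9%), so many stricter Dox peaks had a weaker control counterpart. The full Dox table against the stricter control list gave 1843 (49.5%). At log10 FDR -5 or below in both lists it was 638 (26.9%), in the Dox list alone 363 (15.3%), and at a fold of at least 4 in both 499 (36.3%). A 500 nt window gave 635 (33.8%), and placement by the peak's 3' end changed the share to 27.9%. The other 10 alternatives for the count and 8 for the share, which varied overlap, strand, interval length and window, stayed within 1.5 times or within the interval. They include 2 chosen after seeing the data: gene strand from RefSeq alone (953, 31.0%) and overlapping peaks counted once (1165). The median width was 211 nt at log10 FDR -5 or below and 240 nt in the stricter Dox list, and the median fold 2.30 at -5 or less. The share of genes with a control peak was 62.3% with the stricter control list and 67.8% at -5 or less in both lists, and the share with a control 3' end peak was 3.24% with a 500 nt window and 8.13% at -5 or less in both. No paired analysis was possible because each file pools both replicates of its condition, and for the same reason no replicate could be left out. Depth is unknown, so a missing control peak does not show that m6A was absent there.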
